A study of Mus musculus and Homo sapiens with 10 samples.

Results

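Sox1, Pax6, Olig2 and Nes are genes of the early nervous system, examined here in undifferentiated mouse embryonic stem cells through 3 histone H3 acetylations. The members were the called islands (enriched regions) that met 1 of 4 mm9 windows, one around each gene. The windows were chr8:12370000-12430000 for Sox1, chr2:105480000-105560000 for Pax6, chr16:91200000-91250000 for Olig2 and chr3:87750000-87810000 for Nes. They held 45 islands of the 272566 in the 3 mouse lists and of the 632878 in all 6 lists of the series. Of these 45, 23 belonged to H3K122ac, 12 to H3K64ac and 10 to H3K27ac.

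The cells were the 46c line, which carries a Sox1-GFP reporter, at passages 25 to 28. They were grown without feeders in medium with serum and Lif and were not differentiated. Chromatin was cut with micrococcal nuclease and precipitated with antibodies to H3K122ac, H3K64ac or H3K27ac, with 2 replicates per antibody. The authors merged the replicates before calling islands, so there is 1 list per mark. No value below has a replicate error, and no replicate test was possible. The design text of the series calls the replicates biological. In this line the reporter sits in the Sox1 locus itself, so the Sox1 window was measured in cells with an altered allele.

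Acetylation of H3 at K27, a lysine of the histone tail, is widely taken as a sign of active promoters and enhancers. The lysines K122 and K64 lie in the globular domain, where H3 contacts the DNA wrapped around it. Genes that drive neural development are typically silent in embryonic stem cells and are often called poised, because their promoters can carry activating and Polycomb marks together. Polycomb marks and transcripts were not analysed here, so the data show acetylation at these genes but do not test whether they are poised.

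Each island carries a count of precipitated reads and a count of background reads. Its fold is the quotient of these counts divided by a library ratio, fixed per list, that adjusts for depth. That ratio was 0.913 for H3K122ac, 1.08 for H3K64ac and 2.19 for H3K27ac, so H3K27ac had the most reads relative to background. In total, islands held 44320255 reads for H3K122ac, 38692934 for H3K64ac and 40473895 for H3K27ac. Median folds over whole lists were 2.83, 2.42 and 1.49 respectively. The lists share a background library: all 5372 pairs of H3K122ac and H3K64ac islands with identical ends had equal background counts. Low or high background at a site therefore moves the folds of all 3 marks together. Intervals in brackets are exact (Clopper-Pearson) 95% intervals that cover counting error only. Percentiles place a fold among the islands of its own list with at least 10 background reads. The H3K27ac list is labelled with gaps of 200 bp and the other 2 with gaps of 600 bp. Counts, lengths and coverage of islands are therefore not fully alike between H3K27ac and the globular marks.

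The promoters of these genes are shown because poised developmental genes are known for promoters rich in CG dinucleotides. All 4 genes matched the RefSeq promoter table (GRCm38.p6, plus strand), Pax6 with 2 start sites. Given for Olig2, Nes and Pax6 are the 250 bases before each start, 5′ to 3′, with every CG in capitals. The coordinates are those of GRCm38.p6 and cannot be set against the mm9 islands.
Olig2, chr16:91225300-91225549: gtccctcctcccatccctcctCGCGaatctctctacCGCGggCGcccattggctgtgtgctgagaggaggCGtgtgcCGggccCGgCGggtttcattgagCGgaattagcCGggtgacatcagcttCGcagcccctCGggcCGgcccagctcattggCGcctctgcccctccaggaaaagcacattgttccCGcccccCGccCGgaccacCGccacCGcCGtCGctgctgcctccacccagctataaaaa
Nes, chr3:87970843-87971092: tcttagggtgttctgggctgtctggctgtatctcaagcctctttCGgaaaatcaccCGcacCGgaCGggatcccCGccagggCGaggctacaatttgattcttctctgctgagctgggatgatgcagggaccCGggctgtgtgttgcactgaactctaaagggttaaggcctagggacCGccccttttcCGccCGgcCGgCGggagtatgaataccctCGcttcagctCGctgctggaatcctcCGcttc
Pax6 first start, chr2:105668646-105668895: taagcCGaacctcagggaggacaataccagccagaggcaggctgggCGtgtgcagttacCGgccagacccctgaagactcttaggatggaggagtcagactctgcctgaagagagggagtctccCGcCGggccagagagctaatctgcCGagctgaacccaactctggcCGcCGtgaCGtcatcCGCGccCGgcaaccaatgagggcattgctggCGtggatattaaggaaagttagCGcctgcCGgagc
Pax6 second start, chr2:105682213-105682462: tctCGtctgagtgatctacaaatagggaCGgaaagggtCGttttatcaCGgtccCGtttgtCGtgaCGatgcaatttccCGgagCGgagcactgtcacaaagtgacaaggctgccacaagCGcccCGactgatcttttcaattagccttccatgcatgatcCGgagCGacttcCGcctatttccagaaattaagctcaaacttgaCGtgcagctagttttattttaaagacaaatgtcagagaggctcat

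The Sox1 promoter held 29 CG dinucleotides, more than 93.2% of the 32851 promoters of the table, whose median was 6. Olig2 held 22, and Nes and both Pax6 promoters held 15 each, more than 72.7% of the table. The GC share ranged from 47.6% at the second Pax6 start to 71.2% at Sox1, against a median of 52.4%. On both strands, GGGCGG (the GC box) occurred 3 times at Sox1, 2 times at Olig2 and 2 times at Nes, with no match at Pax6, and 32.7% of all promoters held it. CCAAT occurred at Sox1, at the first Pax6 start and 2 times at Olig2, and 33.8% of all promoters held it. TATAAA occurred once, at Olig2, and 12.4% of all promoters held it. GGGCGG itself contains a CG, so these matches overlap the capitals where the sequence is shown.

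H3K122ac was present in all 4 windows, H3K64ac in all 4, and H3K27ac in 2. Of the 23 H3K122ac islands, 4 (17.4%) met an H3K27ac island, whereas 55.6% of all H3K122ac islands did so. Of the 12 H3K64ac islands, 4 (33.3%) met H3K27ac, against 72.5% of all H3K64ac islands. All 12 H3K64ac islands met H3K122ac, as did 93.5% of the whole list, and 12 of the 23 H3K122ac islands (52.2%) met H3K64ac, against 60.6%. Of the 10 H3K27ac islands, 7 met H3K122ac, against 55.0% of that list, and the same number met H3K64ac, against 50.2%. H3K122ac covered 87.4 kb of the windows, of which H3K64ac also covered 62.7% and H3K27ac 7.09%. Over the whole H3K122ac list those shares of length were 69.1% and 44.2%.

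**Figure D1:**
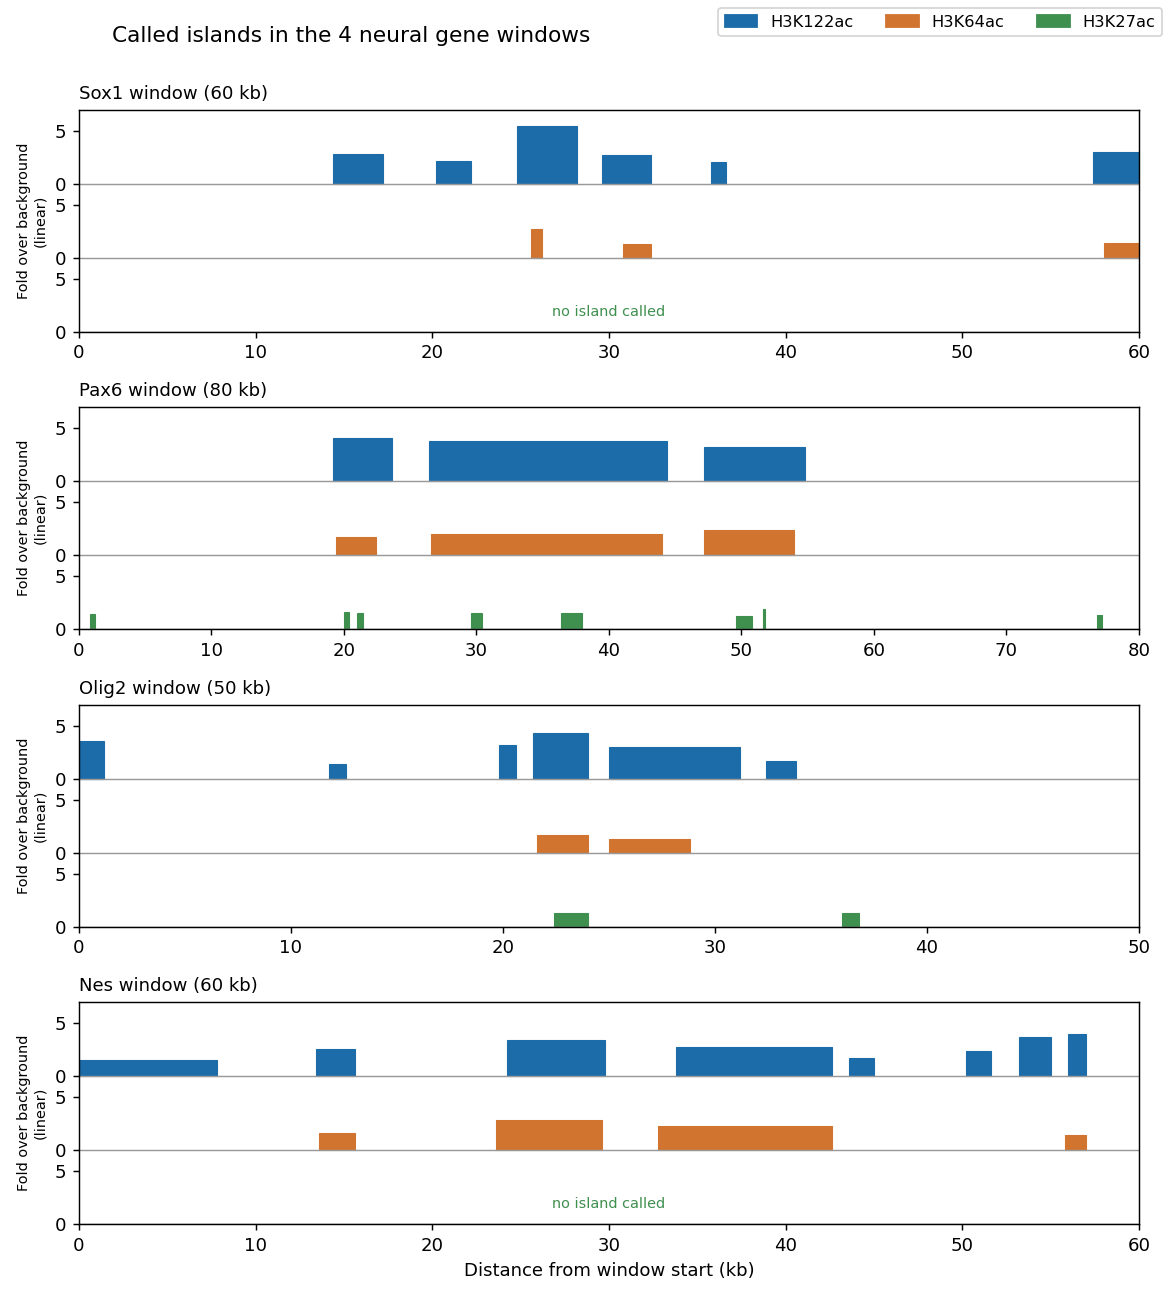
Islands of H3K122ac, H3K64ac and H3K27ac in the 4 gene windows, by distance from the window start in kb (horizontal axis), with bar height giving fold over background on a linear scale. Sox1 and Nes have no H3K27ac island, and every H3K64ac island lies over an H3K122ac island.

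Sox1 encodes a transcription factor of the SoxB1 family that marks early neuroectoderm. Its window held 6 H3K122ac islands, 3 H3K64ac islands and no H3K27ac island. The highest H3K122ac fold of all 23 members lay at chr8:12394801-12398200, at 5.49 (4.41 to 6.89), from 491 reads over 98 background reads. That island stood at percentile 85.2 of its list. Background there was 28.8 reads per kb, the lowest of the 23 members, and the part that background, or the reporter allele, has in this fold was not tested. By excess read density, the depth-adjusted precipitated reads minus background per kb, the island reached 129 per kb, at percentile 61.5.

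H3K64ac met this Sox1 island only over 600 bp, at chr8:12395601-12396200, with a fold of 2.71 (1.79 to 4.22) from 91 reads over 31. The longest H3K122ac and H3K64ac islands of the window lay at its far edge, at chr8:12427401-12435200 and chr8:12428001-12435000, and ran past it. Their folds were 2.96 (2.69 to 3.26) and 1.43 (1.28 to 1.60). The former had the highest H3K122ac excess density of the window, at 146 per kb. The remaining 4 H3K122ac islands had folds of 2.03 to 2.80, and the remaining H3K64ac island 1.34, so the interval of the central H3K122ac island lay above those of all the others. The H3K27ac island nearest to the central H3K122ac island lay 38400 bp away, and the one nearest to the H3K122ac island at the edge 2800 bp away, both outside the window.

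Pax6, a paired-box transcription factor of the eye, forebrain and spinal cord, carried the most H3K27ac of the 4 genes. Its 3 H3K122ac islands covered 37.5% of the window and its 3 H3K64ac islands 34.0%, and each H3K122ac island had an H3K64ac counterpart. The longest member of all, chr2:105506401-105524400, spanned 18000 bp of H3K122ac with 4170 reads over 1197 and a fold of 3.82 (3.58 to 4.07). Its H3K64ac counterpart, chr2:105506601-105524000, spanned 17400 bp with 2511 reads over 1166 and a fold of 1.99 (1.86 to 2.13). The highest H3K122ac fold was 4.04 (3.52 to 4.63) at chr2:105499201-105503600, from 995 reads over 270. The highest H3K64ac fold was 2.37 (2.12 to 2.66) at chr2:105527201-105534000, from 1092 reads over 426. There the H3K122ac fold was 3.25 (2.92 to 3.62), the lowest of its 3. By their point values the marks ranked these 3 Pax6 islands in opposite order, but all 3 H3K122ac intervals overlapped one another. For H3K64ac only the intervals of the first and last island, 1.47 to 2.06 and 2.12 to 2.66, were apart.

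The 8 H3K27ac islands at Pax6 were short, from 200 to 1600 bp, and covered 6.75% of the window. Of these, 6 lay inside the H3K122ac and H3K64ac islands, 2 in each of the 3, and the other 2 stood alone near the window's ends. The highest H3K27ac fold was 1.93 (1.06 to 3.74) at chr2:105531601-105531800, from only 59 reads over 14. The longest, chr2:105516401-105518000, had 275 reads over 81 and a fold of 1.55 (1.21 to 2.02), close to the median of the whole list. Its q-value of 2.41e-11 was the smallest of the 10 H3K27ac members. The weakest, chr2:105529601-105530800, had a fold of 1.21 (0.924 to 1.59) and a q-value of 0.00987, just under the limit of 0.01.

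Olig2, a basic helix-loop-helix factor of motor neuron and oligodendrocyte progenitors, had 6 H3K122ac, 2 H3K64ac and 2 H3K27ac islands. The highest H3K122ac fold was 4.35 (3.66 to 5.18) at chr16:91221401-91224000, from 663 reads over 167. It was also the one site of the window with all 3 marks. The H3K64ac fold there was 1.64 (1.35 to 2.01), from 281 reads over 158, and the H3K27ac fold 1.31 (1.05 to 1.63), from 326 reads over 114. These stood at percentiles 75.4, 21.8 and 23.4 of their lists, so the globular mark H3K122ac was the strongest of the 3 relative to its own list.

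The longest Olig2 island, chr16:91225001-91231200, had an H3K122ac fold of 3.01 (2.68 to 3.39) over 6200 bp. H3K64ac covered 3800 bp of it, at chr16:91225001-91228800, with the lowest fold of its 12 members, 1.28 (1.08 to 1.53), from 318 reads over 229. No H3K27ac island met it, although one ended 1000 bp before it. The other 4 H3K122ac islands of the window met neither mark and had folds of 1.40 to 3.60. The second H3K27ac island, chr16:91236001-91236800, met no other mark and had a fold of 1.28 (0.907 to 1.82) at a q-value of 0.00755.

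Nes encodes nestin, an intermediate filament protein of neural progenitors. Its window held the most H3K122ac islands, 8, which covered 50% of it, and 4 H3K64ac islands, which covered 31.7%. No H3K27ac island was called. Crabp2 and Bcan are the nearest protein-coding genes on either side in the RefSeq gene table, and their islands cannot be told apart from those of Nes here. No mm9 annotation was used, so islands were not assigned to exons, introns or promoters.

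The highest H3K122ac fold at Nes was 4.00 (3.19 to 5.07) at chr3:87806001-87807000, from 351 reads over 96. Its excess density, 288 per kb, was the highest of the 23 H3K122ac members, at percentile 92.9 of the list. H3K64ac there reached only 1.45 (1.13 to 1.86), from 171 reads over 109. The highest H3K64ac fold of all 12 members lay instead at chr3:87773601-87779600, at 2.87 (2.58 to 3.20), from 1430 reads over 460. H3K122ac at the overlapping chr3:87774201-87779800 had 1450 reads, also over 460, and a fold of 3.45 (3.11 to 3.84). At the longest H3K64ac island of the window, chr3:87782801-87792600, the fold was 2.27 (2.10 to 2.47), and H3K122ac over it had 2.72 (2.50 to 2.96). These 2 Nes sites were the ones where the globular marks came closest to each other. The longest H3K122ac island, chr3:87748201-87757800, crossed the window's start, met no other mark and had a low fold, 1.56 (1.43 to 1.71).

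Summed over the 4 windows, the H3K122ac islands had 18277 reads over 6635 background reads, a pooled fold of 3.02 (2.93 to 3.10). The H3K64ac islands had 9634 over 4433 and a pooled fold of 2.01 (1.94 to 2.08), and the H3K27ac islands 1647 over 529 and 1.42 (1.29 to 1.57). Against their own lists the marks differed. A fold above the list median was reached by 12 of 23 H3K122ac islands, 2 of 12 H3K64ac islands and 5 of 10 H3K27ac islands. A fold of 2 or more was reached by 19 of 23, 4 of 12 and 0 of 10, against 72.9%, 63.8% and 17.8% of the whole lists. A q-value of at most 1e-10 was reached by 21, 9 and 1 of them, against 80.4%, 81.6% and 38.7%. H3K122ac at these genes thus lay around the middle of its list, H3K64ac mostly in the lower part of its own.

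**Figure D2:**
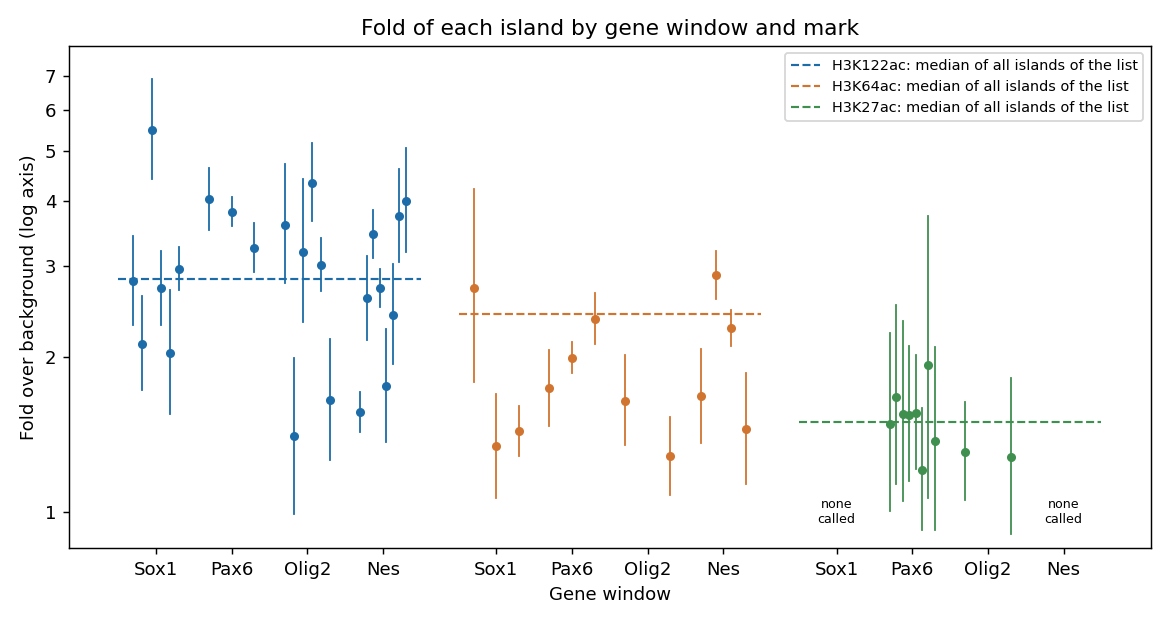
Fold over background (log axis) of each of the 45 islands, by gene window and mark, with exact 95% counting intervals; dashed lines are the medians of all islands of each list. H3K122ac points lie on both sides of their line at 2.83, whereas 10 of 12 H3K64ac points lie below theirs at 2.42.

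Background was denser in the members than in the lists as a whole. H3K122ac members had a median of 69.0 background reads per kb, against 61.9 for the list, and 5 of 23 lay below that median. For H3K64ac the medians were 71.8 and 58.3, with 1 of 12 below. For H3K27ac they were 72.5 and 60, with 2 of 10 below. The part of background in the low folds and the few H3K27ac calls was not tested.

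The absence of H3K27ac calls at Sox1 and Nes was set against the lowest folds called in that list. Of the 23 H3K122ac islands, 19 met no H3K27ac. For each of them, H3K27ac islands anywhere in the genome were taken with background counts within 10% of its own and a length of 0.5 to 2 times its own. The lowest fold called among such islands was 1.07 to 1.24, depending on the island. At the background count of the central Sox1 island it was 1.18, and at that of chr3:87774201-87779800 in the Nes window it was 1.08. For the 8 H3K64ac islands that met no H3K27ac, matched likewise, it was 1.06 to 1.32. The 1.32 belonged to the H3K64ac island inside the central Sox1 island, with 600 bp and 31 background reads. These fold sizes apply to H3K27ac islands of about the length and background count of the whole island they were matched to. The H3K27ac members spanned only 200 to 1600 bp, over 14 to 114 background reads. Whether islands that short would have been called at these fold sizes was not tested. An enrichment below these fold sizes was not called in any matched island at this depth. Only called islands were matched, so how often a region at or above these fold sizes goes uncalled was not tested. From the 19 H3K122ac islands to the closest H3K27ac island the distance ran from 1000 bp at Olig2 to 71000 bp at Nes, with a median of 31400 bp.

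Windows with as much H3K122ac as Sox1 and Nes but without H3K27ac were rare in the genome. The numbered chromosomes and X were divided into 43959 tiles of 60 kb. An H3K122ac island was present in 70.5% of tiles, an H3K64ac island in 57.2% and an H3K27ac island in 70.4%. Tiles with H3K122ac and no H3K27ac made up 9.08%, and tiles with H3K122ac and H3K64ac but no H3K27ac made up 3.62%. Among the 5159 tiles with at least the 14.4 kb of H3K122ac found at Sox1, 65 (1.26%) had no H3K27ac. Among the 775 tiles with at least the 30.0 kb found at Nes, 6 (0.774%) had none. The windows were placed around genes and the tiles were not, so these shares describe the genome and are no test. Sox1 and Nes were also the windows that lacked H3K27ac in these same lists, and Pax6 and Olig2 were not treated in this way. The lack at Sox1 depends on the window's end, as its H3K122ac island at that edge lay 2800 bp from an H3K27ac island.

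Windows of equal length on either side of each gene gave the surroundings. The 8 flanking windows held 22 H3K122ac islands in 500 kb, against 23 in the 250 kb of the gene windows. H3K122ac covered 18.1% of the flanks and 35.0% of the gene windows, H3K64ac 16.5% and 22.6%, and H3K27ac 9.72% and 3.12%. Islands that cross a border are counted on both sides. Summed over the windows, H3K27ac was sparser at the genes than beside them, while both globular marks were denser. This did not hold for each gene. At Sox1, H3K122ac covered 24.0% of the gene window but 4.33% of the flank before it and 61.3% of that after it. H3K64ac covered 7% of the Sox1 window, 0% before and 51.7% after, and 31.7% of the Nes window against 51.0% before it. At Olig2 the order for H3K27ac was the opposite, with H3K27ac over 4.8% of the gene window, 0% of the flank before it and 1.2% of that after it. Pooled folds were higher in the flanks than in the gene windows, at 3.91 against 3.02 for H3K122ac, 3.45 against 2.01 for H3K64ac and 1.5 against 1.42 for H3K27ac. The flanks differed widely among themselves. After Sox1, 6 H3K27ac islands covered 30.3%, and before Nes 9 H3K27ac islands covered 25.0%. These came to 18.2 kb and 15.0 kb of the 48.6 kb of H3K27ac in the flanks. Both flanks of Olig2 held little of any mark, with H3K122ac over 0.800% before and 6% after.

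The 3 pluripotency genes Pou5f1, Nanog and Sox2 and 3 genes of other lineages served as comparison, each in a 60 kb window placed by hand from general knowledge of mm9. The former encode the core transcription factors of undifferentiated stem cells, and Sox2 is of the same SoxB1 family as Sox1. All 3 windows held H3K27ac, 26 islands in all, which covered from 23.7% of the Sox2 window to 38.7% of the Pou5f1 window. These defining genes of undifferentiated cells thus carried all 3 acetylations. H3K122ac covered 60.7% of these windows and H3K64ac 65.1%. H3K27ac lay over 51.5% of the H3K122ac length, against 7.09% at the neural genes. The Pou5f1 window also holds other genes, among them Tcf19.

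The strongest H3K27ac fold among these windows was 3.28 at chr3:34549001-34550400 beside Sox2, from 351 reads over 49, and it stood at percentile 97.4. No neural H3K27ac island passed 1.93. The top H3K122ac folds overlapped between the sets, from 4.00 to 5.49 in the neural windows and from 3.85 to 6.15 in the pluripotency windows. The top H3K64ac folds did not, at 1.64 to 2.87 and 4.14 to 8.59.

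T, Sox17 and Foxa2, early genes of mesoderm and endoderm, were closer to the neural genes. H3K122ac covered 20% of their windows, H3K64ac 14.6% and H3K27ac 4.22%. H3K27ac lay over 11.7% of their H3K122ac length, and 4 of their 15 H3K122ac islands (26.7%) met it. Each of the 3 had at least 1 H3K27ac island, unlike Sox1 and Nes. Pooled folds were 3.24 for H3K122ac, 1.92 for H3K64ac and 1.55 for H3K27ac, close to the 3.02, 2.01 and 1.42 of the neural windows. No difference between these sets of windows was tested, since there is 1 list per mark and windows of a list are not replicates.

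**Figure D3:**
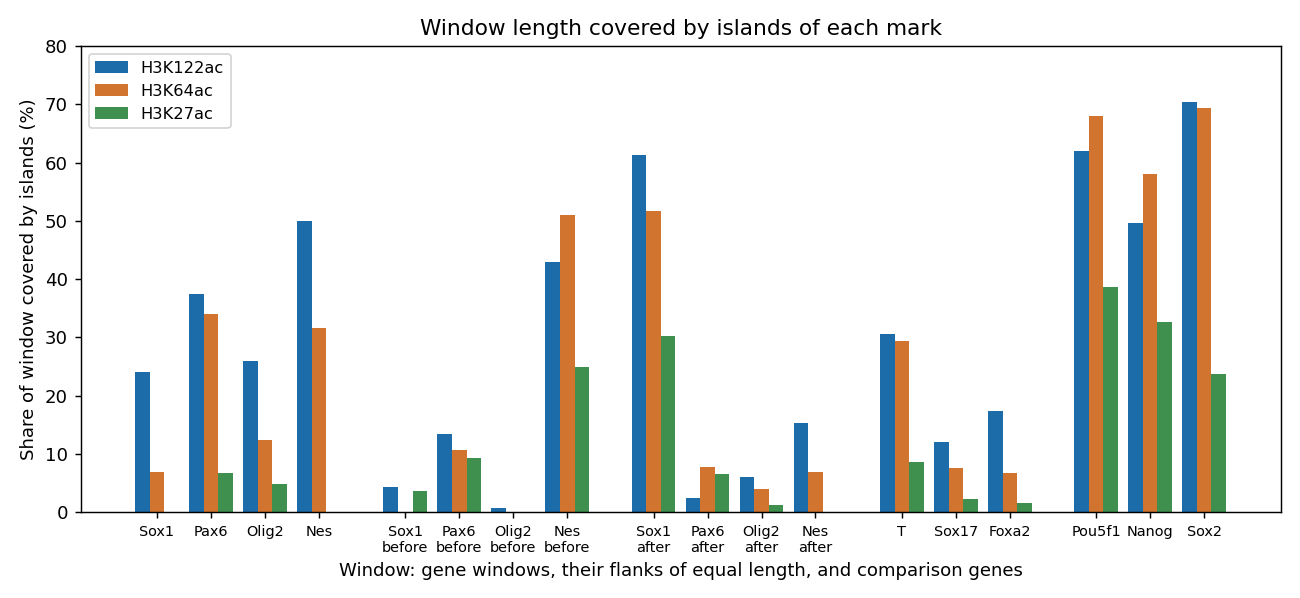
Share of each window covered by islands of each mark (%, vertical axis), for the gene windows, the flanks of equal length before and after them, and the comparison genes. H3K27ac bars are absent at Sox1 and Nes and reach 23.7 to 38.7% at Pou5f1, Nanog and Sox2.

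The globular marks were last set against each other where their islands met. In all 12 such pairs in the neural windows the H3K122ac fold was the higher, and in 11 the counting intervals did not overlap. Over the genome the H3K122ac fold was the higher in 75.0% of 57794 pairs, and pairs with intervals apart were not counted there. The ratio of the H3K122ac to the H3K64ac fold had a median of 2.03, from 1.19 at a Nes site to 2.76 at chr3:87806001-87807000, also at Nes. Over the genome its median was 1.28. Sox1 had ratios of 2.02 to 2.06, Olig2 of 2.35 and 2.65, and Pax6 of 1.37 to 2.32, so Nes spanned the range of the other genes and beyond. In all 12 pairs H3K122ac also held the higher percentile within its own list. That share was not computed over the genome, so nothing can be set beside it. No pair had identical ends, so background did not cancel exactly, and antibody efficiency may differ between the marks, which was not tested.

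At Pou5f1, Nanog and Sox2 the H3K122ac fold was the higher in 6 of 15 pairs and the H3K64ac fold in 9, with a median ratio of 0.934. The counting intervals were apart in 3 and 4 of these 15 pairs respectively. Pooled over each window, the H3K64ac value was the higher at all 3, with 4.52 against 4.24 at Pou5f1, 4.46 against 4.07 at Nanog and 3.91 against 3.64 at Sox2, but the intervals overlapped at Pou5f1 and Sox2. At the neural genes the H3K122ac value was the higher in all 4 windows, with 2.94 against 1.47 at Sox1, 3.71 against 2.05 at Pax6, 3.07 against 1.43 at Olig2 and 2.53 against 2.34 at Nes, where alone the intervals overlapped. At T, Sox17 and Foxa2 the H3K122ac fold was the higher in 8 of 9 pairs and the H3K64ac fold in 1. The median ratio was 1.85, and the counting intervals were apart in 6 and 1 of these 9 pairs respectively. Some H3K64ac islands at Pou5f1, Nanog and T recur among their pairs, whereas no neural island does, so the pair counts are not fully alike. The same lists and the same background library underlie all of these windows.

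**Figure D4:**
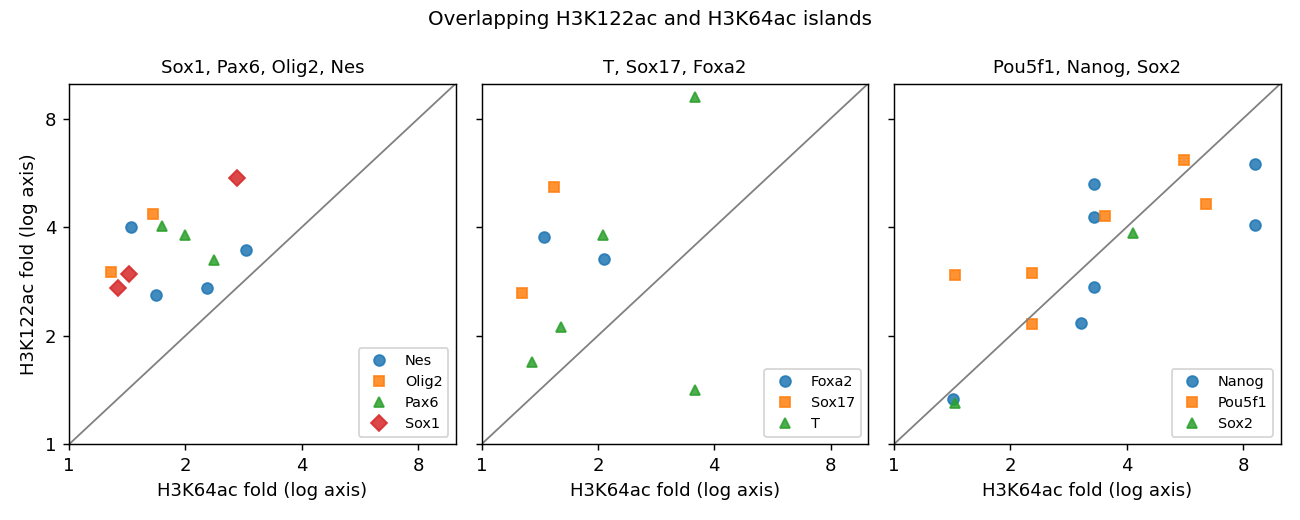
H3K122ac fold (vertical) against H3K64ac fold (horizontal) for overlapping islands in 3 sets of windows, both on log axes, with the line of equal folds. All 12 neural pairs lie above the line, 8 of 9 pairs at T, Sox17 and Foxa2 do, and 6 of 15 at Pou5f1, Nanog and Sox2.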

How the data were processed

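Merged island lists of H3K122ac, H3K64ac and H3K27ac from 46c cells were analysed, with 2 replicates merged per list. The submitters' processing notes name Bowtie 0.12.8, HOMER 4.3, SICER 1.1 and build mm9, without stating what each tool did. The deposited lists are labelled with a false discovery rate of 0.01, windows of 200 bp, and gaps of 600 bp (H3K122ac, H3K64ac) or 200 bp (H3K27ac). The authors deposited whole-number read counts of the precipitated and the background library for each island, not normalized. The authors also deposited a q-value (an adjusted p-value) and a fold, which is the ratio of both counts divided by a library ratio per list. No source used here says which library the background was.

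Dividing count quotients by folds gave a single library ratio per list. Islands that met a window by at least 1 bp were members, whole islands were counted, and covered length was clipped to the window. Coordinates are 1-based. Pooled folds are summed precipitated over summed background reads, divided by the library ratio. In every window and list the highest-fold island with at least 10 background reads and the longest island were named. Further islands were named after their values were seen. Python 3.11.15, pandas 2.3.3, numpy 2.4.6 and scipy 1.17.1 were used, and the code was tested on simulated data. The genes, the comparison genes and the rules were chosen with earlier results of these data known. Other neural genes listed in advance were not scored, as no mm9 annotation was used here.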

Additional observations from a re-analysis of the deposited data

How the results depend on the processing

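The 9 summary values were recomputed under 82 combinations of value and alternative, and 48 stayed within their counting interval or within 1.5 times their count. At a q-value of at most 1e-10 the H3K27ac islands fell to 1, the H3K122ac and H3K64ac islands that met H3K27ac to 1 each, and the pooled H3K64ac fold was 2.09. With a fold of 2 or more in every list, 4 H3K64ac and 0 H3K27ac islands were left, 0 islands of either globular mark met H3K27ac, and 4 H3K122ac islands met H3K64ac. With 50% of the island covered, 1 H3K122ac and 1 H3K64ac island met H3K27ac. With H3K27ac islands joined across 600 bp there were 9 of them, still met by 4 H3K122ac and 4 H3K64ac islands, at a pooled fold of 1.42. With windows narrowed to their middle 50%, pooled folds were 3.23 for H3K122ac and 2.10 for H3K64ac. With windows widened by 50% of their length on each side there were 35 H3K122ac, 20 H3K64ac and 23 H3K27ac islands, and pooled folds were 3.22 for H3K122ac and 2.28 for H3K64ac. Then 10 of the 35 H3K122ac islands (28.6%) and 11 of the 20 H3K64ac islands (55.0%) met H3K27ac, and 20 H3K122ac islands met H3K64ac. Pooled folds of islands wholly inside a window were 3.25 for H3K122ac and 2.09 for H3K64ac. Scaled by all reads inside islands of the list, which sets the pooled fold of the whole list to 1, the pooled folds of all members were 0.898, 0.686 and 0.952. These belong to H3K122ac, H3K64ac and H3K27ac in that order.

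Leaving out 1 gene at a time was added after seeing the data. Without Pax6, there were 2 H3K27ac islands, 1 H3K122ac and 1 H3K64ac island met H3K27ac, and the pooled H3K122ac fold was 2.73. Without Nes there were 15 H3K122ac islands, and pooled folds were 3.34 for H3K122ac and 1.83 for H3K64ac. Without Sox1 the pooled H3K64ac fold was 2.11. H3K27ac at these genes therefore rests mostly on Pax6.

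No paired analysis was possible because the replicates were merged before islands were called, and for the same reason no replicate was left out. Comparisons of islands with identical ends gave no value, since no member pair had them. The H3K27ac members had at most 326 reads each, over lengths of 200 to 1600 bp. Among matched islands, no enrichment under the lowest folds given above was called. Whether short islands, or regions at those folds, would have been called was not tested.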
